A study of Rattus norvegicus with 17 samples.

Results

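The immediate early genes are a small group of genes whose transcription is switched on within minutes of a stimulus, from factors already present in the cell. Here 10 of them were followed in rat skin: the AP-1 subunit genes Fos, Fosb, Jun and Junb, the transcription factor genes Egr1, Egr3 and Nr4a1, and the feedback and effector genes Dusp1, Ier2 and Ier3. A probe was taken as a member's when the sequence name given with it maps to one of these symbols in the RefSeq annotation of the rat assembly GRCr8. On that rule 9 of the 10 genes had a probe, and Fosb had no named probe and was not analysed here. All 9 were well above background on all 17 arrays. They are among 11167 named genes that passed the filter on dim signals, which asked for at least 8 of the 17 arrays.

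Growth factors, stress and membrane depolarisation reach these genes through the MAP kinase cascade, which activates factors bound upstream of their start sites, among them SRF with its ternary complex partners and CREB. Their messenger RNAs are short-lived, so a level reads recent transcription rather than a stored pool. In skin they are known for their response to wounding, ultraviolet light and growth factors, and AP-1 is a regulator of keratinocyte proliferation and differentiation.

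Skin explants came from male CD hairless rats aged 2 to 3 months at the outset. Exposed rats received 94 GHz radiation, a millimetre wave frequency, for 3 h a day on 3 days a week over 5.5 months, and sham rats went through the same schedule under sham exposure. Each sample was 1 single-colour Agilent array, with 9 exposed and 8 sham arrays. The design text speaks of 8 sham animals but only 6 exposed ones, fewer than the exposed arrays. Several of those arrays may therefore come from one animal, which would make p-values over arrays too small. The time between the last exposure and sampling is not given in the sources used here. Since whole skin was hybridised, fewer cells of a type and less RNA per cell cannot be told apart.

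The arrays lay on 4 slides. Slide 1 held 3 exposed and 2 sham arrays, slide 2 held 4 and 2, slide 3 held 1 and 1, and slide 4 held 1 and 3. The 75th percentile of the signal lay between 1067 and 1689 on the 17 arrays, and 66.7% to 70.8% of the probes were well above background. The number of arrays limits the precision. Markers of basal keratinocytes were present on every array, at a summed signal of 222 to 334 times the 75th percentile on exposed arrays and 241 to 344 on sham arrays (5 genes measured). Contents of the explants varied far more: the summed signal of 9 skeletal muscle genes ranged from 1.54 to 237 on exposed and from 1.77 to 153 on sham arrays, and that of 10 hair follicle genes from 9.01 to 288 and from 0.191 to 291.

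Promoters of 4 genes are printed here as examples of members that carry the CREB half-site TGACG. Egr1 carries it too and is not printed. RefSeq sequence of assembly GRCr8 was available for 6 of the 10 genes (Fosb, Nr4a1, Dusp1, Egr1, Junb and Ier2). Each stretch is the 250 bases before the start, on the plus strand, written 5′ to 3′, with TGACG on either strand or the full palindrome TGACGTCA in capitals. They are Nr4a1 at chr7:134259888-134260137, Dusp1 at chr10:17184603-17184852, Junb at chr19:40080876-40081125 and Ier2 at chr19:40399123-40399372.
Nr4a1: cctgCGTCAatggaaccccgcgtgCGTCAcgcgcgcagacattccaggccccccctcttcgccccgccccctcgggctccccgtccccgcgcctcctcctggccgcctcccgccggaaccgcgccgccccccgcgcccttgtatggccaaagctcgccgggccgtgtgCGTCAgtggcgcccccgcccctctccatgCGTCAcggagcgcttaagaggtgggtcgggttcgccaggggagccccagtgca
Dusp1: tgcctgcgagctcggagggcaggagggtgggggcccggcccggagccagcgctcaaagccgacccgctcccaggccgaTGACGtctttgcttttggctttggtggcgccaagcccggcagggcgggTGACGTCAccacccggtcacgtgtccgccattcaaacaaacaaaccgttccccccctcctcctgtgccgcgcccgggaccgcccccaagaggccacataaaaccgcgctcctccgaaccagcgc
Junb: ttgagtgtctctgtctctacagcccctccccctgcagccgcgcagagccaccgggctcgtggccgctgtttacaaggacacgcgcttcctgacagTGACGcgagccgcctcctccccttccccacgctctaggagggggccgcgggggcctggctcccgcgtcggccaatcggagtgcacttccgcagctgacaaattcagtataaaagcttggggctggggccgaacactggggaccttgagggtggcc
Ier2: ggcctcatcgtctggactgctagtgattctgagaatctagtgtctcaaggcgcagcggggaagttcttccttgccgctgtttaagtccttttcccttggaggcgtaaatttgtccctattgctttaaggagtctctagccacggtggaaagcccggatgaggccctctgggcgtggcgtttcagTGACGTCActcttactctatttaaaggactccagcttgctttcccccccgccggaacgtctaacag
The Nr4a1 window held 4 copies of TGACG, all read on the minus strand, and the Junb window 1. The palindrome TGACGTCA, which contains TGACG on each strand, stood in the Dusp1 and Ier2 windows, and Dusp1 had 1 more TGACG outside it. Over the 6 promoters TGACGTCA was found in 2, against 1.59% of 33469 rat promoters of the same length, and TGACG in 5, against 18.2%. The CArG box, the motif bound by SRF, was found in 1 (Egr1), against 1.5%, and the AP-1 motif TGAGTCA in 0, against 4.05%. Motifs were searched on both strands; a match is a description of the letters and not of a bound site.

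All values below are log2 signals relative to the array's 75th percentile, so 0 is a probe as bright as that percentile. Levels of different genes are not set against each other, because probes differ in brightness.

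Fos, an AP-1 subunit that needs a Jun partner to bind DNA, varied more between arrays than any other member. On exposed arrays Fos had a lowest, median and highest value of -3.68, -2.21 and -1.37, against -3.50, -1.84 and -1.08 on sham arrays. The groups overlapped almost fully, and in each of them the lowest array came from slide 3. The whole range of 2.60 on the log2 scale is a 6.08-fold span. Its 2 spots on an array differed by a mean SD of 0.0757, against an SD between arrays of one group of 0.698, so the spread between arrays was 9.22 times that between spots.

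Jun, the AP-1 subunit that can pair with itself or with Fos, had values of 0.69, 0.84 and 1.04 on exposed arrays and 0.50, 1.18 and 1.48 on sham arrays. The exposed arrays lay close together, at 0.861 ± 0.105 (SD, n = 9), and the sham arrays were spread more widely, at 1.15 ± 0.310 (SD, n = 8). All 9 exposed arrays were below the sham mean, and 6 of 8 sham arrays were above the highest exposed one. The lowest sham value, 0.50, was on slide 3 and lay below every exposed array.

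Junb, an AP-1 subunit with weaker transactivation than Jun, was steady, at 3.01, 3.35 and 3.53 on exposed arrays and 3.09, 3.36 and 3.62 on sham arrays. Its whole range was 0.61, a 1.53-fold span. It was read from 1 spot, so no spread between spots can be given.

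Egr1, a zinc finger factor of the wound response, had values of 0.24, 0.74 and 0.85 on exposed arrays, against 0.014, 0.68 and 1.16 on sham arrays. Sham arrays held both the lowest and the highest value, and 7 of the 9 exposed arrays lay between 0.63 and 0.85. Nr4a1, an orphan nuclear receptor, had values of -2.04, -1.33 and -1.22 on exposed arrays and -2.01, -1.30 and -0.49 on sham arrays. The highest sham array stood above every exposed array, and 3 of 8 sham arrays did so in all. Egr3, a zinc finger factor related to Egr1, was dim, at -5.27, -5.08 and -4.11 on exposed arrays and -5.18, -4.86 and -4.57 on sham arrays. Its spots differed by a mean SD of 0.2 on an array, so the SD of 0.294 between arrays was 1.47 times the spread between spots, the lowest such ratio among the members with several spots.

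Dusp1 encodes a phosphatase that inactivates MAP kinases and so closes the loop that switches these genes on. It had values of -3.23, -2.82 and -1.99 on exposed arrays and -3.35, -2.20 and -2.01 on sham arrays. Of the 9 exposed arrays, 7 lay below the sham mean, and the lowest array of all was the sham array of slide 3. Ier2, an early response gene of the nucleus, had values of 2.57, 2.83 and 2.98 on exposed arrays and 2.57, 2.87 and 3.11 on sham arrays. Its range of 0.55 was the narrowest of the 9, yet its SD between arrays was 4.63 times that between its 10 spots. Ier3, an early gene tied to cell survival, had values of 0.99, 1.32 and 1.58 on exposed arrays and 1.14, 1.46 and 1.62 on sham arrays. For Ier3, slide 3 did not hold the lowest array of either group.

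**Figure D1:**
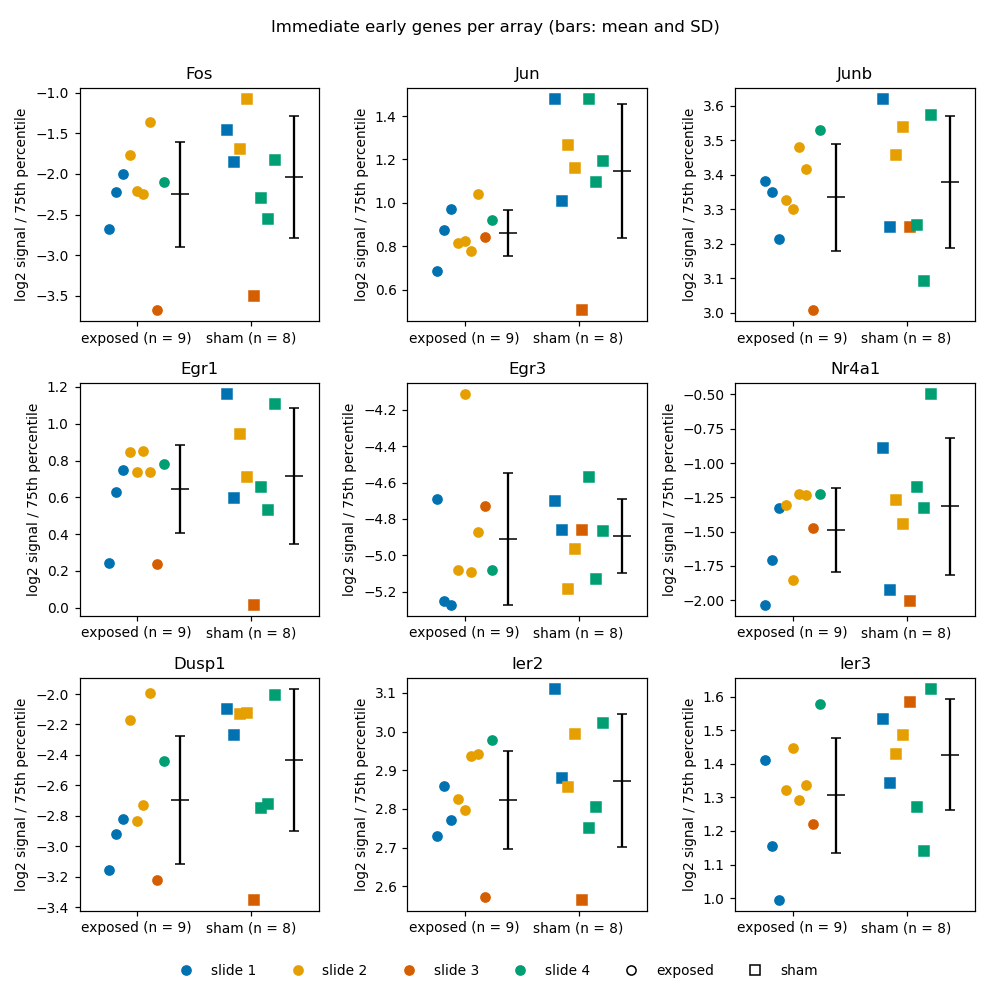
Log2 signal relative to the array's 75th percentile (vertical axis) for 9 immediate early genes on 9 exposed and 8 sham arrays, coloured by slide, with group mean and SD as bars. The groups overlap in every panel; in Jun the exposed arrays form a tight cluster below 6 of the 8 sham arrays.

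The comparison of exposed with sham skin asks whether chronic 94 GHz exposure left these genes at another level at sampling. In limma with Benjamini-Hochberg adjustment over 20710 probes, 0 of the 9 genes passed (0% of all probes passed), with adjusted p from 0.986 to 0.995. At an unadjusted p under 0.05 there was 1, Jun, against 4.45% of all probes in either direction and 3.84% lower in exposed skin. The fitted difference was below 0 for 9 of 9 genes, where 61% of all probes were below 0, and the median over the members was -0.12, against -0.024 over all probes. The 9 genes share arrays and correlate, so the 9 signs are not separate observations.

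Jun differed by -0.29 (95% interval -0.51 to -0.063), or 0.82-fold, with an unadjusted p of 0.0150 and an adjusted p of 0.986 in limma. The Dusp1 difference was -0.27 (-0.70 to 0.16), the Fos difference -0.22 (-0.89 to 0.45) and the Nr4a1 difference -0.17 (-0.57 to 0.22). Their intervals hold both a fall and no change. Without sham replicate 8 the Nr4a1 difference was -0.054, and without sham replicate 5 it was -0.27. Ier3 differed by -0.12 (-0.29 to 0.051), Egr1 by -0.069 (-0.37 to 0.23) and Ier2 by -0.049 (-0.20 to 0.11). Junb, at -0.045 (-0.22 to 0.13), and Egr3, at -0.017 (-0.31 to 0.28), had the smallest fitted differences. Without exposed replicate 5 the Egr3 difference was -0.12, and a second, dimmer Egr3 probe gave -0.36 over all arrays. The Egr1 difference ran from -0.17 without sham replicate 5 to -0.0053 without sham replicate 1. None of these intervals reaches a 2-fold change in either direction.

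Slides carried unequal numbers of exposed and sham arrays, so the difference was also taken within slides. With slide as a block Jun differed by -0.27 (unadjusted p = 0.0179) and Fos by -0.38 (-0.76 to -0.0026, unadjusted p = 0.0487) in limma, both with an adjusted p of 0.999. On slides 1 to 4 alone, Jun differed by -0.40, -0.35, 0.34 and -0.33. The one positive value came from slide 3, with 1 array of each group, and without that slide the Jun difference was -0.38 (unadjusted p = 0.000206, adjusted p = 0.489 in limma), a setting chosen after the values were seen. Fos differed by -0.64, -0.51, -0.18 and 0.13 on slides 1 to 4. Single arrays moved the Fos value: it was -0.039 without the exposed array of slide 3, -0.43 without the sham one and -0.081 without sham replicate 4 of slide 2. Without both arrays of slide 3 it was -0.25, close to the pooled value. Dusp1 differed by -0.78, -0.30, 0.13 and 0.052 on slides 1 to 4; the blocked value was -0.33. The exposure difference was not shown to vary with slide: 0 of the 9 genes passed the limma interaction test at an adjusted p under 0.05 (adjusted p = 0.997), which 0.0145% of 20694 probes did. Without adjustment 0 members were below 0.05, against 4.4% of all probes.

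**Figure D2:**
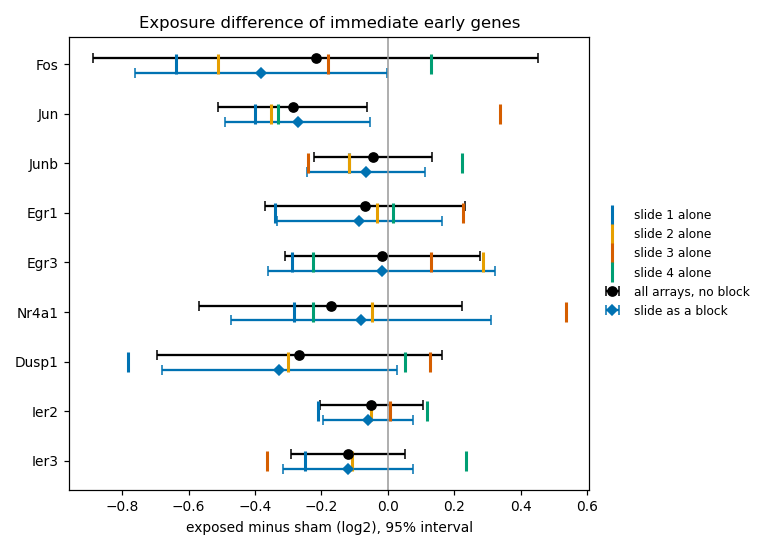
Exposed minus sham difference (log2, horizontal axis) of 9 immediate early genes with 95% limma intervals, over all arrays (black) and with slide as a block (blue), and the difference on each slide alone as a coloured tick. All 9 pooled differences lie below 0, only the Jun interval leaves out 0 without the block, and the slide ticks fall on both sides of 0 for every gene.

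Slides accounted for 71.0% of the variance of Fos over the 17 arrays, 51.7% of that of Egr1, 51.3% for Ier2 and 44.5% for Dusp1. Shares of 33.2% (Nr4a1, unadjusted p = 0.106 in limma's F test), 30.1% (Jun, 0.154) and 28.2% (Junb, 0.210) followed. Ier3 with 8.48% and Egr3 with 2.89% were near the low end. The share is not corrected for the number of slides, so on average it lies above 0 even without a slide effect. The median of the members was 33.2%, against 19.7% over all probes, and Fos stood at the 99.8th percentile of that distribution. Some cell type marker lists had higher medians: red blood cell 55.2%, fibroblast 51.1% and skeletal muscle 42.5%. The other marker lists had medians from 8.92% (suprabasal keratinocyte) to 27.4% (hair follicle). Control RNA added at labelling had a median of 31.2%. At an unadjusted p under 0.05 in limma's F test, 4 of 9 genes were called between slides (Fos, Egr1, Ier2 and Dusp1), where 8.84% of all probes were. Without sham replicate 5 only Fos remained at that level (unadjusted p = 0.00363 in limma), and without exposed replicate 8 only Fos (0.00734) and Egr1 (0.0387), both arrays being those of slide 3. Without sham replicate 5 the share of Jun was 15.6%, and without exposed replicate 8 that of Junb was 8.97%. After Benjamini-Hochberg adjustment 0 of the 9 passed (0% of all probes), with 0.243 for Fos and 0.454 for Egr1. The 4 genes called without adjustment correlate over the arrays, so they are not separate observations. Which genes were called also depended on the normalization. With normexp background correction Dusp1 was not called (35.7%, unadjusted p = 0.0739 in limma). Junb was called under quantile normalization (44.04%, 0.0493), normexp with quantile normalization (43.95%, 0.0381) and in the authors' value table (44.02%, 0.0428).

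**Figure D3:**
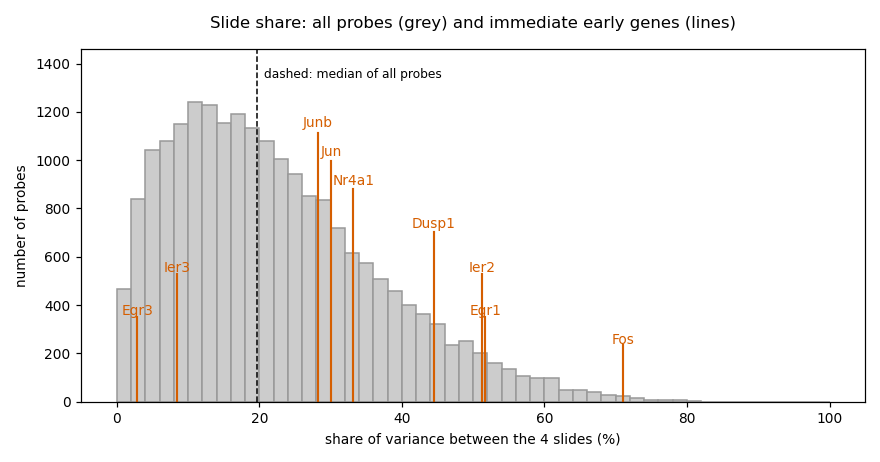
Share of variance between the 4 slides (horizontal axis, percent) for all probes (grey, number of probes on the vertical axis) and for 9 immediate early genes (orange lines, heights arbitrary). Fos lies in the far tail at 71.0%, Egr1, Ier2 and Dusp1 between 44.5% and 51.7%, and Ier3 and Egr3 left of the median of 19.7%.

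For Fos, Egr1, Ier2 and Dusp1 the 2 arrays of slide 3 stood apart. Fos averaged -2.05 on slide 1, -1.73 on slide 2, -3.59 on slide 3 and -2.20 on slide 4. On slide 3 the exposed array was at -3.68 and the sham array at -3.50, and the next lowest array of the series was at -2.67, so exposed and sham skin on that slide were alike and both apart from the rest. Relative to the other 15 arrays, slide 3 was lower by a log2 difference of -1.63 for Fos (0.32-fold), -0.81 for Dusp1 (0.57-fold), -0.63 for Egr1 (0.65-fold) and -0.32 for Ier2 (0.80-fold). For these 4 genes both arrays of slide 3 lay below all 15 others, which held for 1.47% of 20694 probes. For Egr1 the next array was close, at 0.244 against 0.239 for the higher array of slide 3. Dusp1 was close too, at -3.155 against -3.225, with a mean SD between its spots of 0.0877. The 4 genes correlate over the same arrays, with r from 0.789 to 0.885, so they are not separate observations. The 4 genes were singled out after their values were seen. Nr4a1 (-0.38), Jun (-0.37) and Junb (-0.26) were lower on average on slide 3 but overlapped the other arrays. Egr3 (0.12) and Ier3 (0.046) were not lower, and for 0 of the 9 genes did both arrays of slide 3 lie above all 15 others (1.24% of probes). A second, dimmer Egr3 probe read -7.38 on the exposed array of slide 3, where it was not well above background, and -5.70 on the sham array. Its slide share was 22.6%. The share of the Egr3 probe used here was 2.89%, and 13.5% without exposed replicate 5.

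**Figure D4:**
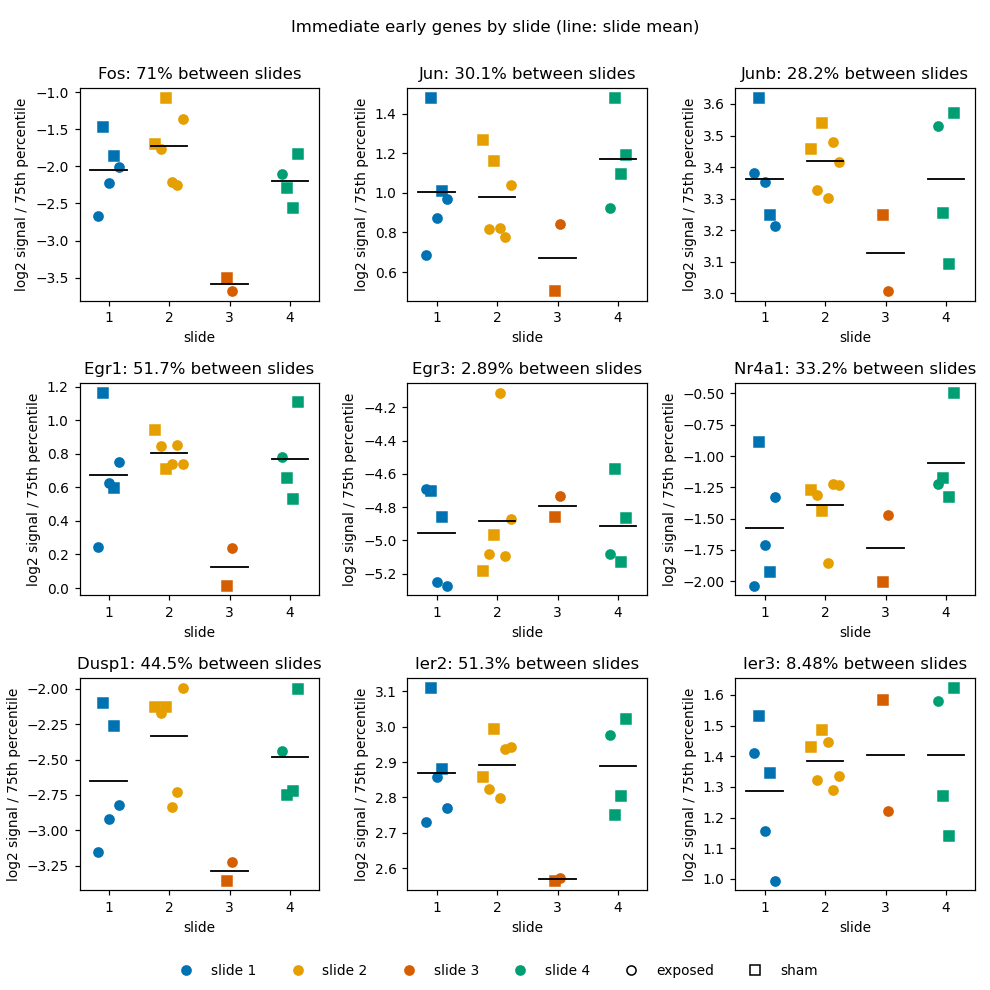
Log2 signal relative to the 75th percentile (vertical axis) of 9 immediate early genes by slide, with the slide mean as a line, circles for exposed and squares for sham arrays. In Fos, Egr1, Ier2 and Dusp1 both arrays of slide 3 sit below the 15 other arrays, and slides 1, 2 and 4 overlap.

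Without slide 3 the slide share fell to 21.3% for Fos (unadjusted p = 0.191 in limma), 6.55% for Egr1, 0.85% for Ier2 and 13.6% for Dusp1. This fall follows largely from slide 3 holding the lowest arrays of these genes and is no separate result. Nr4a1 kept 27.8% (unadjusted p = 0.107). Its slide means were -1.58, -1.39, -1.74 and -1.05 for slides 1 to 4, so slide 4 was the high one for this gene. The mean of the 9 genes, each centred on its own mean, had 50.3% of its variance between slides with slide 3 and 10.6% without.

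Cell type markers also differed between slides. At an unadjusted p under 0.05 in limma's F test, 6 of 9 skeletal muscle, 5 of 7 fibroblast and 4 of 5 red blood cell markers were called. In the other marker lists 0 to 2 genes were called, and 8.84% of all probes were. After adjustment 0 passed. Scores are the mean log2 value of the markers, each centred over the arrays. Skeletal muscle was at 5.37 on the exposed array of slide 3 and 2.11 on its sham array. Hair follicle was at 0.85 and -6.40, so the follicle scores of slide 3 lay far apart. On slide 2, exposed replicate 4 and sham replicate 3 had muscle scores of 5.17 and 4.73 with Fos at -1.77 and -1.70. Whether muscle content by itself bears on the Fos level was not tested. On slide 3 fibroblast markers were at 0.185 on the exposed and 1.105 on the sham array. Red blood cell markers there were at 0.65 and 0.45, above the highest array of the other slides, at 0.44. Over the 17 arrays the mean of the members had a Pearson correlation of -0.418 with the muscle score (9 genes), -0.522 with the macrophage score (11 genes), -0.458 with the fibroblast score (7 genes) and 0.30 with the follicle score (10 genes), given as a description. Within slides these correlations were -0.314, -0.464, -0.212 and 0.0634. With the muscle and follicle scores as covariates the limma slide test of Fos had an unadjusted p of 0.00131. Its adjusted p was 0.683, against 0.243 without the covariates. Unadjusted p in the same test was 0.0722 for Egr1, 0.0739 for Dusp1 and 0.178 for Ier2. Without the covariates these 3 genes were under 0.05. No other cell type was used as a covariate, and the part of RNA quality was not tested. Control RNA added at labelling (10 probes) had a slide share of 24.4% to 43.2%, and on slide 3 its centred mean was 0.28 on the exposed array and -0.33 on the sham array.

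Most members varied together from array to array. Over the 36 pairs of the 9 genes the median Pearson correlation across 17 arrays was 0.565, and 19 pairs had an adjusted p under 0.05 in a two-sided permutation test with Benjamini-Hochberg adjustment over the 36 (18 by Spearman). Pairs of other genes were not tested. The count of 19 therefore has no share over other gene pairs beside it and is not shown to be particular to these genes. Values centred within each slide gave a median of 0.514 with 6 pairs called, and leaving out slide 3 gave 0.488. All arrays enter with their own cell content and scaling, which every gene on an array shares.

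Fos and Dusp1, an activator and the phosphatase that dampens its inducing kinases, formed the tightest pair. Their Pearson r was 0.885 and Spearman rho 0.88 over 17 arrays (adjusted permutation p = 0.00036 and 0.00072). The pair held within slides, at 0.878 (adjusted permutation p = 0.00342), and without the 2 arrays farthest from the Fos median, which are those of slide 3, at 0.851. It stood at 0.841 among exposed and 0.931 among sham arrays. Egr1 and Nr4a1 had r = 0.764 and rho = 0.772 over the 17 arrays (adjusted permutation p = 0.00153 and 0.00324), and 0.879 within slides (adjusted permutation p = 0.00342).

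Ier2 was tied to several members. Its r was 0.851 with Egr1, 0.847 with Fos, 0.827 with Junb and 0.822 with Dusp1 over 17 arrays, each with an adjusted permutation p of 0.00036, and rho was 0.703, 0.762, 0.799 and 0.833. Within slides these values were 0.707, 0.723, 0.777 and 0.726, of which the pair with Egr1 missed the threshold (adjusted permutation p = 0.0807). Without the 2 arrays farthest from the median of 1 gene of the pair (Egr1, Fos, Junb and Ier2 in turn) they were 0.715, 0.661, 0.709 and 0.705. The arrays left out for Junb were not the 2 of slide 3. Without slide 3 the pair of Junb and Ier2 was at 0.811.

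Egr3, and over all 17 arrays Ier3, had weaker correlations with the rest. The 8 pairs with Egr3 had a median r of -0.142 and 0 were called in the permutation test. Of the 8 pairs with Ier3, 1 was called, that with Junb, at r = 0.643 and rho = 0.637 over 17 arrays (adjusted permutation p = 0.0153 and 0.0213) and 0.823 within slides (adjusted permutation p = 0.0289). Ier3 and Fos had r = 0.152 (adjusted permutation p = 0.652), but 0.404 within slides and 0.364 without slide 3. The low Ier3 values rested in part on slide 3: the median of its pairs was 0.24 over all arrays, 0.371 within slides and 0.413 without slide 3, where Ier2 was at 0.621 and Dusp1 at 0.521. The other 7 genes form 21 pairs, with a median r of 0.658 and 18 called, a split made after the values were seen. Jun and Junb, both AP-1 subunits of one family, were the loosest of these 21, at r = 0.325 (adjusted permutation p = 0.305).

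**Figure D5:**
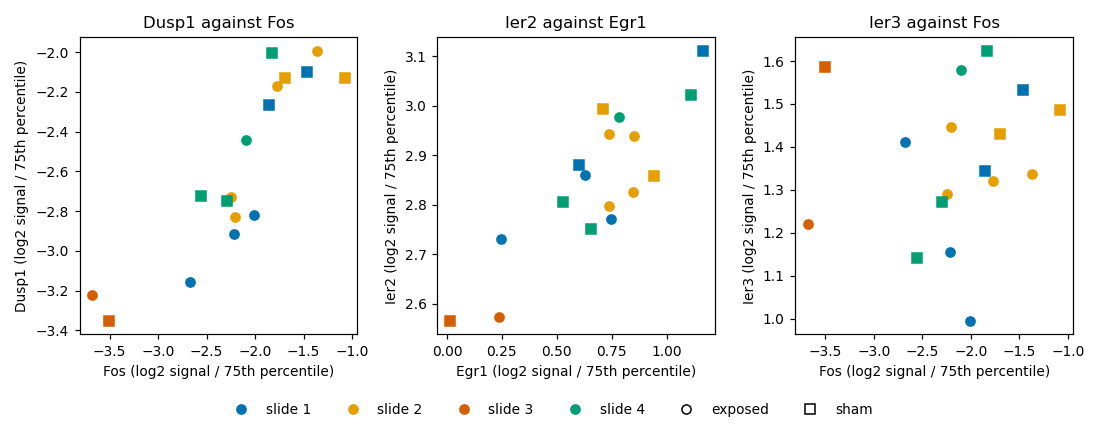
Dusp1 against Fos, Ier2 against Egr1 and Ier3 against Fos on 17 arrays (log2 signal relative to the 75th percentile on both axes), coloured by slide, circles exposed and squares sham. The first pair follows a line with r = 0.885, the second has r = 0.851 with slide 3 at its low end, and the third has no clear trend, at r = 0.152.

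Outside the members, the genes most like their mean were ranked over 10304 named genes by Pearson correlation across the 17 arrays. The highest were Zfp830 (0.844), Lipg (0.844), Zfp707 (0.821), Ovol2 (0.803), Fscn3 (0.789), Dyrk1a (0.772), Foxk2 (0.77), Siah2 (0.763), Ppp4r2 (0.758) and Cfap141 (0.757). Lipg encodes endothelial lipase, Ovol2 an epithelial zinc finger factor, Dyrk1a a kinase and Siah2 a ubiquitin ligase. Within slides their values lay between 0.541 for Ppp4r2 and 0.796 for Zfp707. At the other end stood Rwdd3 (-0.776), Papss2 (-0.727), Ifi35 (-0.711) and Ifi47 (-0.685), where Ifi35 and Ifi47 are interferon-induced genes. The median over all genes was 0.0188, and 35 genes (0.34%) were above 0.7.

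Other genes of the pathway were read from lists of AP-1 and bZIP factors, further immediate early genes, MAP kinase phosphatases, upstream kinases and factors, and late AP-1 targets. Of 103 measured genes 58 were lower (56.3%) and 45 higher on exposed arrays, beside 61% of all probes lower. In limma 0 passed after adjustment, and 7 had an unadjusted p under 0.05 (6.8%), of which 6 were lower, beside 4.45% of all probes in either direction and 3.84% lower. The lists count each gene once. Counted that way, 6553 of 11167 named genes were lower, and 346 lower and 60 higher had an unadjusted p under 0.05. Creb1, the factor that binds TGACGTCA, differed by -0.17 (unadjusted p = 0.00593) and Dusp8, a phosphatase of JNK, by -0.18 (0.00861). Nfkbia, the NF-kappaB inhibitor, differed by -0.19, Trib1, a pseudokinase gene, by -0.23, Egfr by -0.12 and Zfp36l2, an mRNA decay factor, by -0.12. Timp1, a metalloproteinase inhibitor and AP-1 target, differed by 0.34 and was the one higher gene. Their adjusted p was 0.986 in limma.

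Among the 16 other AP-1 and bZIP factors measured, Atf3, a stress-induced bZIP factor, had -1.65 ± 0.438 (SD, n = 9) on exposed and -1.28 ± 0.602 (SD, n = 8) on sham arrays, a difference of -0.37 (-0.87 to 0.14). Jund, the constitutive Jun family member, differed by -0.10. The median difference of this list was -0.029. Jdp2, a bZIP repressor, had the highest slide share of the list (55.7%), and its r with the member mean was -0.0038. Among other immediate early transcription factors, Nab2, the corepressor of Egr proteins, had r = 0.655 with the member mean (0.467 within slides) and differed by -0.12 between exposed and sham skin. Per1 differed by -0.15. Egr2 had a slide share of 59.2% and an r of -0.018.

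Of the further immediate early effectors, Ccn1, a matricellular protein gene induced through SRF, had r = 0.74 with the member mean and a slide share of 44.0%, and Arc, a cytoskeletal early gene of neurons, had 0.669 and 56.7%. Within slides these correlations were 0.523 and 0.314. The exposure differences of Ccn1 and Arc were 0.0050 and 0.13. Errfi1, the feedback inhibitor of EGF receptor signalling, and Dusp8 had r = 0.71 and 0.704 (0.455 and 0.776 within slides), so 3 of 109 list genes (2.75%) were above 0.7. Spred1 and Dusp4, other inhibitors of the cascade, had -0.067 and -0.095. Upstream, the MAP kinase gene Mapk3 had a slide share of 51.1% with r = -0.18. Of the late AP-1 targets, Mmp3 and Mmp9 had slide shares of 44.2% and 40.4%, and Vim differed by 0.12 between exposed and sham skin. Between slides 12 of the 103 genes (11.7%) had an unadjusted p under 0.05 and 0 an adjusted one in limma. Beside them stand 8.84% of all probes and, counted by gene, 955 of 11167 named genes.

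The heat shock genes, a separate stress response, had 9 measured members. On exposed arrays 6 of them were higher and 3 lower (61% of all probes were lower), with 0 at an adjusted and 0 at an unadjusted p under 0.05 in limma (4.45% of all probes). Hsp90aa1 differed by 0.049 (-0.056 to 0.15), Hsph1 by 0.11, Hspa8 by 0.036 and Hsf1, their transcription factor, by -0.048. The list's correlation with the member mean over the 17 arrays was 0.455, and 0.141 within slides.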

How the data were processed

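Total RNA of skin explants was labelled with Cy3 and hybridised to 1-colour Agilent arrays. Intensity per spot was deposited as written by Feature Extraction 10.7.3.1 (protocol GE1_107_Sep09, rn4 grid), per the file headers, as processed signal, median signal and background. Flags of spots well above background, another deposited column, were set by the same program, per the file headers. The authors' deposited value table holds log2 values of 14853 probes, 8 of them of these genes; its scaling is not given in the sources used here, and set against the scanner values its columns had r from 0.981 to 0.999, slopes of 0.96 to 1.01 and medians from -0.037 to 0.041, and every row had a median of 0, so it is log2, centred by probe, and runs the same way.

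Here processed signals were taken to log2, the array's 75th percentile was subtracted, and spots of a probe were averaged. Probes had to be well above background in at least 50% of spots on at least 8 arrays of the 17, which kept 20710 of 30367. For genes with more than one such probe, the probe of highest mean was used. Exposed and sham arrays, and the 4 slides, were tested in R 4.3.3 with limma 3.58.1 over all kept probes, with Benjamini-Hochberg adjustment at 0.05; pairs of genes were compared by permutation (100000 draws). Scripts were tested on simulated data. Samples were grouped by the treatment label; array numbers within a group follow deposit order, and nothing says the arrays came from separate animals, so p-values measure the spread between arrays. Slide was read from the titles, and the scan times matched the slides, so no separate scan block was fitted. Normexp was run on the median signal, the foreground signal deposited. The members and lists were chosen with earlier results of these data known. Named beside the members were, per list, the 2 genes with the smallest exposure p and the 2 with the largest slide share, and the 10 genes most and the 5 least like the member mean; genes with an unadjusted p under 0.05 or r above 0.7 were added after the values were seen. A few of the genes so chosen are not reported here.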

Additional observations from a re-analysis of the deposited data

Results flagged for a closer look

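Egr3 on exposed replicate 5, an array of slide 2, was at -4.11, apart from the other exposed arrays, of which the next highest was at -4.69. Its gap was 0.498 of the group's range, just over Dixon's limit of 0.493 for 9 samples. Of 20 groups of values examined this way 1 stood out, and chance gives about 1 in 20. The 2 spots of the probe on that array read -4.99 and -3.24, and the second Egr3 probe read -5.73 there, so the high value came from 1 spot.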

How the results depend on the processing

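The count of probes that differed by exposure at an adjusted p was 0 in limma in all 32 alternatives, with 669 to 1331 at an unadjusted p when single arrays were left out (922 in all); the value table gave 579 and slide 1 alone 540. The count between slides was 0 and reached 0 to 15 when single arrays were left out, with 15 without sham replicate 5 and 12 without exposed replicate 8, the arrays of slide 3; at an unadjusted p it was 1831, and 2754 with no filter on dim probes. The interaction count was 3, and it was 1 under quantile normalization, 6 under normexp with quantile normalization and 0 without slide 3 (unadjusted 911, and 501 without it). The Egr3 difference turned positive under quantile normalization (0.00022), normexp with quantile normalization (0.012), array weights (0.034), muscle and follicle covariates (0.048), on slide 2 (0.29) and on slide 3 (0.13), and ran from -0.12 to 0.029 when single arrays were left out; its other probe gave -0.36. On slide 3 alone the difference was positive for Jun (0.34), Egr1 (0.22), Ier2 (0.0064), Dusp1 (0.13) and Nr4a1 (0.54). On slide 4 alone it was positive for Fos (0.13), Junb (0.22), Egr1 (0.017), Ier2 (0.12), Ier3 (0.23) and Dusp1 (0.052). The cause of these changes was not tested. Every other alternative left the sign of each gene's difference as it was. Leaving out single arrays moved Fos between -0.43 and -0.039, Junb between -0.086 and -0.0039, Ier2 between -0.093 and -0.015, Dusp1 between -0.40 and -0.20, Ier3 between -0.16 and -0.082 and Jun between -0.38 and -0.24. With array weights the Fos difference was -0.35. The median pair correlation lay between 0.488 and 0.565. No paired analysis was possible because the titles give an array position and no replicate number. The array row and the exposure fit and pair correlations without slide 3 were chosen after the data were seen. Egr3 is limited by its dim signal, and Junb by its single spot.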

Other observations

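Of the exposed arrays 6 and of the sham arrays 3 lay on row 2 of their slides, and the mean of the 9 genes, each centred over the arrays, was -0.031 ± 0.21 on row 2 (SD, n = 9) and 0.035 ± 0.27 on row 1 (SD, n = 8). That mean was -0.065 ± 0.181 on exposed arrays (SD, n = 9) and 0.073 ± 0.276 on sham arrays (SD, n = 8). Its highest value, 0.393, was on a sham array of slide 1, and its lowest, -0.446, on the sham array of slide 3. The second Egr3 probe was well above background on 9 of 17 arrays, 4 exposed and 5 sham.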
